A study of Mus musculus with 8 samples.

Results

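The 10 genes described here encode the 5 NF-κB subunits (Nfkb1, Nfkb2, Rel, Rela and Relb) and 5 inhibitors or inhibitor-like regulators of the pathway (Nfkbia, Nfkbie, Nfkbiz, Tnfaip3 and Bcl3). They were taken by symbol from a count matrix of 24902 gene symbols. All 10 had a value in all 8 libraries, and all 10 were among the 13173 genes that passed the filter on low counts. Bulk RNA-seq had been run on B cells isolated from the spleens of mice that met early removal criteria (ERC), the humane endpoint of the study. There were 4 Eµ-PRMT5 mice, 3 Eµ-PRMT5/TCL1 mice and 1 Eµ-TCL1 mouse, and the labels give the strain C57BL/6N for all of them. In Eµ-PRMT5 mice human PRMT5, an arginine methyltransferase, is driven by an immunoglobulin heavy chain promoter and the Eµ enhancer, which are active in immature and mature B cells. Eµ-TCL1 mice carry the TCL1 oncogene under the same kind of control and are a model of chronic lymphocytic leukemia (CLL), and Eµ-PRMT5/TCL1 mice carry both transgenes. Every group thus carried at least 1 transgene, and WT mice were not analysed here. Each library has a mouse number of its own in its title, and ages are not given in the labels. The number in the title of Eµ-PRMT5 mouse 2 is 1 that the methods of the study give for a founder of the transgenic lines, and that line was crossed with Eµ-TCL1 mice to make the double transgenic animals. The lines of the other 3 Eµ-PRMT5 mice are not given in the labels. The titles of Eµ-PRMT5 mice 3 and 4 also hold numbers under which the study describes mice of different histology. For the number of mouse 3 it reports large anaplastic lymphocytes with histiocytes, and for that of mouse 4 sheets of small lymphocytes. Whether these are the same animals is not stated in the labels.

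NF-κB is a family of transcription factors that act as dimers and are central to the survival and activation of B cells. In resting cells IκB proteins hold the dimers in the cytoplasm. Signals from the B cell receptor, CD40 or Toll-like receptors activate the IκB kinase complex, the IκB proteins are degraded, and the dimers enter the nucleus. This canonical arm uses mainly dimers of RelA or c-Rel with the product of Nfkb1, whereas the non-canonical arm uses RelB with the processed product of Nfkb2. Several genes of the pathway are themselves targets of NF-κB, among them Nfkbia, Nfkbie and Tnfaip3, so that the pathway restrains itself.

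Letters that fit the κB consensus were looked for in the 250 bases before each annotated start of transcription, on both strands and with overlapping matches allowed, in the RefSeq promoter table (GRCm38.p6). The table had 10 such windows for 7 of the 10 genes, and none for Nfkb1, Relb or Nfkbiz. A match was present in 7 of the 10 windows, against 7.25% of the 32851 windows in the table and 8.49% of the 12894 windows of tested genes. By gene, 5 of 7 members (Nfkb2, Rel, Nfkbia, Nfkbie and Tnfaip3) had at least 1 match, against 10.1% of the 10156 tested genes with an entry. No match was found in these windows of Rela and Bcl3. The 30 bases around each match are shown because NF-κB dimers bind letters of this kind. The matched letters are in capitals, adjoining matches are merged into 1 run, and each sequence is written 5′ to 3′ on the strand of its gene.
Nfkb2, first start, chr19:46304689-46304718 (+): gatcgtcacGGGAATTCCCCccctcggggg
Nfkb2, first start, chr19:46304707-46304736 (+): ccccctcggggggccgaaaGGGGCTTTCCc
Nfkb2, second start, chr19:46305449-46305478 (+): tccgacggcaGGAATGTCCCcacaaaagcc
Nfkb2, last start, chr19:46305695-46305724 (+): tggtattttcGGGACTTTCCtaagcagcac
Rel, chr11:23771041-23771070 (-): gtaagcagcGGGAAATCCCCccccctcccc
Nfkbia, chr12:55492657-55492686 (-): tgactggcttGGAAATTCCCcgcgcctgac
Nfkbie, chr17:45555584-45555613 (+): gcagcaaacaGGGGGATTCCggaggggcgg
Tnfaip3, chr10:19015516-19015545 (-): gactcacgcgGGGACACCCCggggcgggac
Tnfaip3, chr10:19015411-19015440 (-): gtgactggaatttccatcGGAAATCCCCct
The matches of Nfkbia and of the last Tnfaip3 sequence end 20 and 3 bases before the start, and that of Nfkbie ends 97 bases before it. Nfkb2 had a match before each of its 3 starts, and Tnfaip3 before 1 of 2. These starts are those of the promoter table. The gene positions given below come from another annotation, GENCODE, and the matches of Nfkb2 and Tnfaip3 lie inside them. A match of letters is a description of the window and was not tested for binding.

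The libraries held between 3356297 counts on genes (the Eµ-TCL1 mouse) and 10252426 (Eµ-PRMT5 mouse 4). Eµ-PRMT5 mouse 1 stood apart in having a value for 16379 symbols, against 20411 to 21475 in the others. Values below are CPM (counts relative to library size) after scaling by edgeR's TMM factors, and the raw counts behind them ran from 82 (Bcl3, Eµ-PRMT5 mouse 3) to 2870 (Nfkb2, Eµ-PRMT5 mouse 2). All 6 B cell markers examined (Ms4a1, Cd79a, Cd79b, Pax5, Ebf1 and Cd22) were above 0 in every library, and their summed level ranged from 1580.4 CPM (Eµ-PRMT5 mouse 4) to 6596 CPM (Eµ-PRMT5/TCL1 mouse 3). Markers of other cells were present too, with 8 neutrophil genes summing to between 417 and 8730 CPM, 4 plasma cell genes to between 406 and 5604 CPM, and 7 macrophage genes to between 143 and 907 CPM. The 6 T cell genes summed to between 55.3 and 316 CPM, the 5 NK cell genes to between 24.4 and 369 CPM, and the 4 erythroid genes to between 12.7 and 245 CPM. Of these genes, Cd4, Cd8a, C1qa, C1qb, C1qc, Klrb1c, Gzma and Alas2 were at 0 or without a value in at least 1 library. Prmt5, the mouse ortholog of the transgene, was between 62.7 and 235 CPM in Eµ-PRMT5 mice, between 110 and 126 CPM in double transgenic mice and at 79.5 CPM for the Eµ-TCL1 animal. Whether reads of the human transgene count on it is not given in the sources used here. In bulk samples, fewer cells of a type and less RNA per cell cannot be told apart.

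Among the subunits, Nfkb1 and Rela, the partners of the canonical dimer, were present in every mouse at a fairly steady level. Nfkb1 (chromosome 3, 135584655 to 135691547, GRCm38, minus strand) measured 414, 438, 222 and 219 CPM in Eµ-PRMT5 mice 1 to 4, 280, 279 and 295 CPM in the double transgenic group, and 199 CPM in the Eµ-TCL1 mouse. The 3 double transgenic mice lay within 17 CPM of each other, inside the Eµ-PRMT5 range, and the Eµ-TCL1 mouse was the lowest of all. Rela (chromosome 19, 5637483 to 5648130, plus strand) encodes RelA, the main transactivating subunit of the canonical arm. It measured 131, 187, 122 and 85.7 CPM in the Eµ-PRMT5 group, 120, 162 and 122 CPM in the double transgenic group, and 77.9 CPM in the Eµ-TCL1 mouse. The double transgenic values again fell inside the Eµ-PRMT5 range, with the Eµ-TCL1 mouse below them all.

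Rel, which encodes c-Rel, the subunit most closely tied to B cell proliferation, was more variable. Rel (chromosome 11, 23736847 to 23770970, minus strand) measured 211, 320, 73.6 and 89.7 CPM in the Eµ-PRMT5 group, 150, 271 and 109 CPM in the double transgenic group, and 95.2 CPM in the Eµ-TCL1 mouse. The highest Eµ-PRMT5 mouse was 4.35 times the lowest, and the groups overlapped throughout.

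The subunits of the non-canonical arm showed the same wide spread in Eµ-PRMT5 mice. Nfkb2 (chromosome 19, 46304320 to 46312385, plus strand) measured 204, 454, 108 and 148 CPM in the Eµ-PRMT5 group, 306, 305 and 260 CPM in the double transgenic group, and 223 CPM in the Eµ-TCL1 mouse. All 3 double transgenic mice were above 3 of the 4 Eµ-PRMT5 mice and below mouse 2. Exons of Psd and of AC114539.1 on the other strand cover 6.52% and 11.6% of the Nfkb2 exon bases. Counts on Psd ran from 112 to 1286. It is not given in the sources used here whether strand was used. How far this affects the Nfkb2 values was not tested. Relb (chromosome 7, 19606217 to 19629438, minus strand) measured 126, 267, 69.8 and 67.3 CPM in the Eµ-PRMT5 group, 135, 201 and 94.2 CPM in the double transgenic group, and 131 CPM in the Eµ-TCL1 mouse. The Eµ-TCL1 mouse was in the middle of the order for both of these genes.

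Nfkbia and Nfkbie encode IκBα and IκBε, which bind dimers in the cytoplasm. Nfkbia (chromosome 12, 55489410 to 55492647, minus strand) measured 198, 445, 130 and 260 CPM in the Eµ-PRMT5 group, 417, 245 and 223 CPM in the double transgenic group, and 162 CPM in the Eµ-TCL1 mouse. Nfkbie (chromosome 17, 45555703 to 45563169, plus strand) measured 113, 348, 88.9 and 101 CPM in the Eµ-PRMT5 group, 260, 246 and 206 CPM in the double transgenic group, and 58.4 CPM in the Eµ-TCL1 mouse. For Nfkbie the double transgenic mice formed a tight group above 3 Eµ-PRMT5 mice, while Eµ-PRMT5 mouse 2 stood above them and the Eµ-TCL1 mouse stood below all others.

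Tnfaip3 encodes A20, an enzyme that edits ubiquitin chains and shuts off signaling to the IκB kinase. Tnfaip3 (chromosome 10, 19000910 to 19015657, minus strand) measured 63.5, 269, 64.7 and 59.6 CPM in the Eµ-PRMT5 group, 111, 110 and 61.8 CPM in the double transgenic group, and 69.2 CPM in the Eµ-TCL1 mouse. Apart from Eµ-PRMT5 mouse 2 the values lay between 59.6 and 111 CPM.

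Nfkbiz and Bcl3 encode the nuclear proteins IκBζ and BCL3, which bind dimers of the smaller subunits at DNA and can activate or repress. Nfkbiz (chromosome 16, 55811375 to 55838899, minus strand) measured 53.6, 70.6, 52.9 and 78.3 CPM in the Eµ-PRMT5 group, 47.9, 47.6 and 59.5 CPM in the double transgenic group, and 70.6 CPM in the Eµ-TCL1 mouse. It was the most even member across the 8 mice. Bcl3 (chromosome 7, 19808462 to 19822770, minus strand) measured 50.7, 52.2, 18.7 and 65.0 CPM in the Eµ-PRMT5 group, 49.2, 80.1 and 82.1 CPM in the double transgenic group, and 40.6 CPM in the Eµ-TCL1 mouse. Exons of Gm16175 on the other strand cover 6.51% of the Bcl3 exon bases, and Eµ-PRMT5 mouse 3 was well below the rest.

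**Figure D1:**
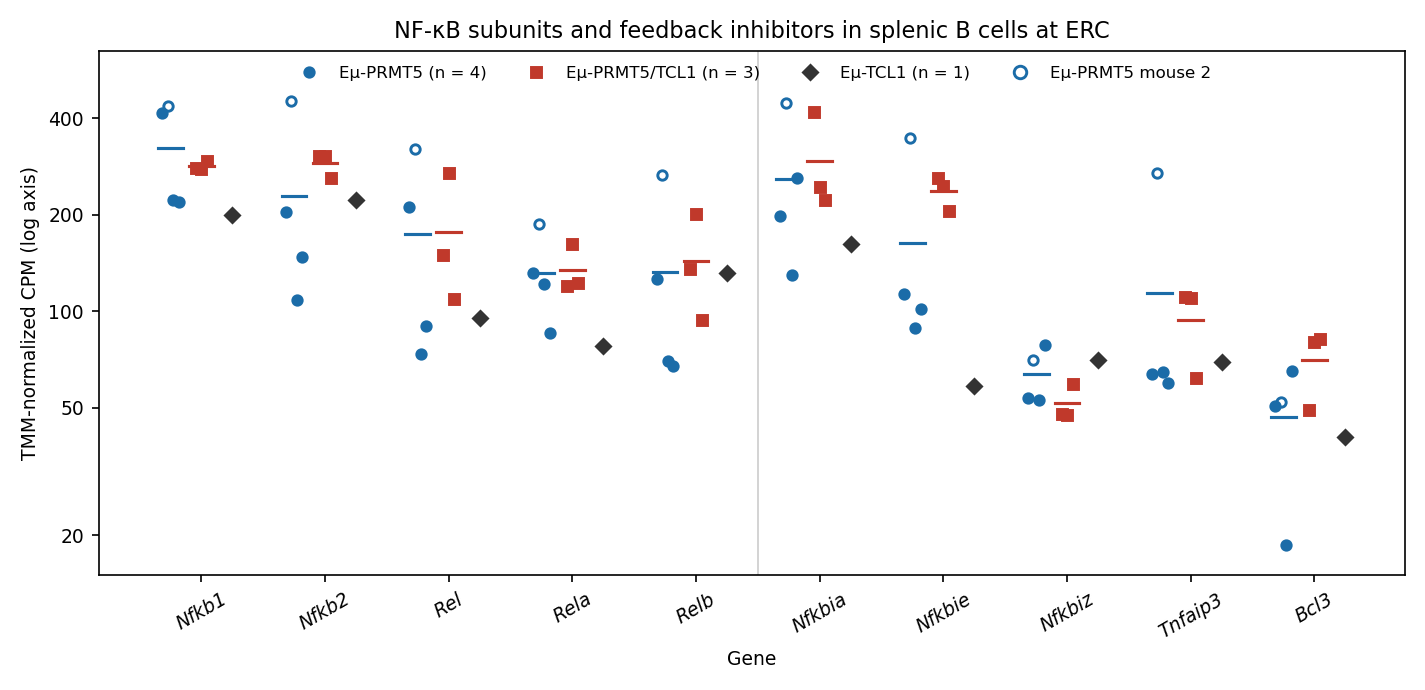
Level of each member in each mouse, as TMM-normalized CPM on a log axis, with 1 point per mouse and short bars at the means of the 4 Eµ-PRMT5 and 3 Eµ-PRMT5/TCL1 mice. The open circle, Eµ-PRMT5 mouse 2, is the highest point for 8 of the 10 genes, and the Eµ-TCL1 mouse is lowest for Nfkb1, Rela and Nfkbie.

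Most members were highest in Eµ-PRMT5 mouse 2, and all spread more widely among Eµ-PRMT5 than among double transgenic mice. Eµ-PRMT5 mouse 2 had the highest value of all 8 mice for 8 members, that is for the 5 subunits, Nfkbia, Nfkbie and Tnfaip3, and this count was also 8 when only library size was used for scaling. Across all tested genes this mouse was highest for 8.65%, and for 11.1% of the 4026 genes in the same range of mean CPM as the members (54.8 to 293 CPM). Eµ-PRMT5 mouse 3 was lowest for 4 members, the Eµ-TCL1 mouse for 3, Eµ-PRMT5 mouse 4 for 2 and Eµ-PRMT5/TCL1 mouse 2 for 1. In the same order, these mice were lowest for 14.3%, 14.2%, 18.0% and 8.05% of all tested genes. For genes in the same range of mean CPM the shares were 22.4%, 23.8%, 13.3% and 5.59%. The coefficient of variation was larger in Eµ-PRMT5 than in double transgenic mice for 10 of 10 members, with medians of 59.4% and 21.8%. This direction was common, since it held for 77.0% of all tested genes (medians 45.8% and 25.5%). Among genes in the same range it held for 79.2% (medians 36.2% and 19.8%). Whether this library is from the founder animal itself is not stated, and with 1 such mouse the title and the animal cannot be told apart. No marker list had its highest sum in Eµ-PRMT5 mouse 2, whose B cell genes summed to 2588 CPM, neutrophil genes to 2150 CPM, plasma cell genes to 2057 CPM and T cell genes to 75.5 CPM.

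**Figure D2:**
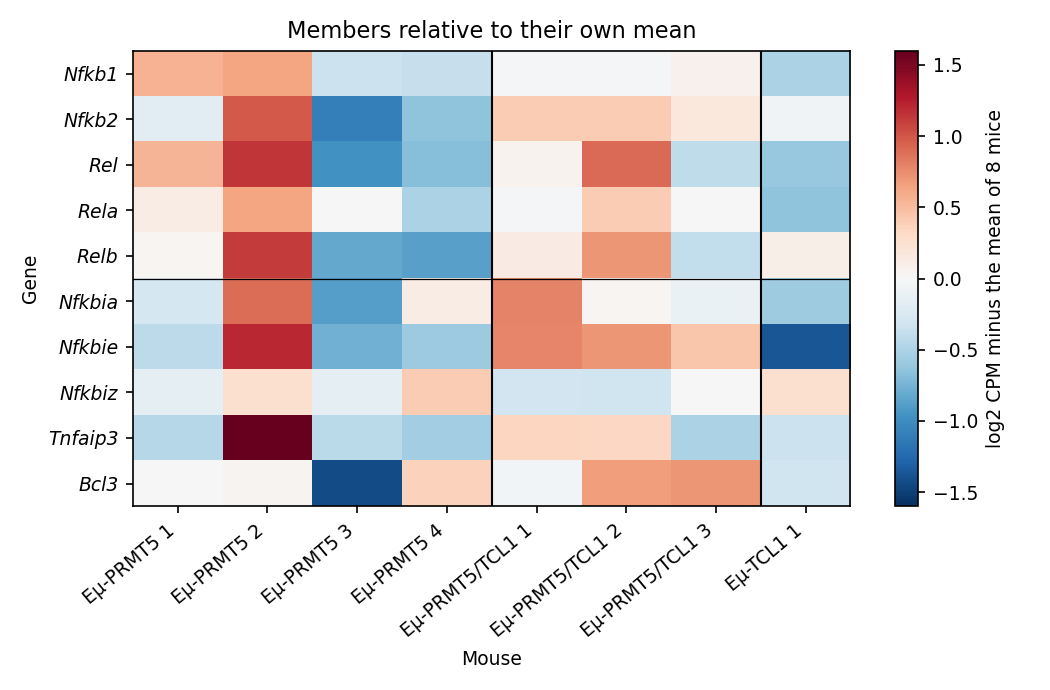
Log2 CPM of each member in each mouse minus the mean of that gene over the 8 mice, with red above and blue below the mean and black lines between genotypes and between subunits and inhibitors. Eµ-PRMT5 mouse 2 is red for 9 rows and near the mean for Bcl3, and Nfkbie in the Eµ-TCL1 mouse and Bcl3 in Eµ-PRMT5 mouse 3 are the deepest blue.

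Whether the addition of TCL1 to the PRMT5 transgene went with a change in these genes was asked first, by comparing the 3 double transgenic with the 4 Eµ-PRMT5 mice. No member passed the threshold, an adjusted p under 0.05 with a change of over 4-fold, and neither did any other gene in edgeR's quasi-likelihood test (0% called). DESeq2 called 4 genes, of which 0 were members. At an unadjusted p under 0.05, 0 of 10 members were higher and 0 lower by either tool, where edgeR had 0.957% of all genes higher and 1.21% lower. Log2 fold changes ran from -0.31 (Nfkbiz, SE 0.32) to 0.59 (Bcl3, SE 0.42), with 7 of 10 above 0. Their median was 0.073, and that of all genes was -0.093, with 40.6% of all genes above 0. For the subunits, the values were -0.18 (SE 0.37) for Nfkb1, 0.34 (SE 0.46) for Nfkb2, 0.02 (SE 0.52) for Rel, 0.03 (SE 0.34) for Rela and 0.11 (SE 0.49) for Relb. Those of the remaining inhibitors were 0.19 (SE 0.44) for Nfkbia, 0.54 (SE 0.47) for Nfkbie and -0.28 (SE 0.54) for Tnfaip3, and the adjusted p was 1.00 for all 10 members. In no member did the groups fail to overlap, where every double transgenic mouse was above every Eµ-PRMT5 mouse for 1.35% of genes and below for 1.59%. Median log2 fold changes of the tested marker genes were -1.04 for plasma cell, -1.31 for NK cell and -1.26 for T cell genes. They were 0.78 for macrophage, 0.36 for neutrophil, 0.23 for B cell and 0.16 for erythroid genes. The part of other cells in the values of the members was not tested.

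This comparison leaned on Eµ-PRMT5 mouse 2, which was singled out after its values were seen. That mouse was the highest of all for 8 members, so leaving it out lowers their Eµ-PRMT5 means by construction. The counts without it are therefore a description and no test of the members. Without it the median of the members was 0.59 on the log2 scale (all genes -0.11) and 8 of 10 were above 0. Nfkbie and Nfkb2, 2 of 10 members, then had an unadjusted p under 0.05 and were higher in double transgenic mice, where 0.706% of all genes were higher and 1.02% lower at that level. Nfkbie then had a log2 fold change of 1.23 (SE 0.36, adjusted p = 0.999 by edgeR), with 206 to 260 CPM in double transgenic mice and 88.9 to 113 CPM in the remaining Eµ-PRMT5 mice. Nfkb2 had a log2 fold change of 0.92 (adjusted p = 0.999 by edgeR). Neither passed the adjusted threshold, and Tnfaip3 went from -0.28 to 0.59. Without Eµ-PRMT5 mouse 3, mouse 4 or double transgenic mouse 2, the median was -0.064, -0.12 and -0.14. With any other single mouse of these groups left out, 0 of 10 members had an unadjusted p under 0.05 by edgeR.

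The Eµ-TCL1 mouse was then set against each replicated group. With 1 mouse, the test shows only how far it stood from mice of the groups with replicates, whose spread it is assumed to share, and both comparisons use it. In each, 9 of 10 members had a log2 fold change above 0 and Nfkbiz below 0. Over all genes, 51.9% were above 0 for Eµ-PRMT5 mice and 46.6% for double transgenic mice. Among genes in the same range of mean CPM as the members, the Eµ-TCL1 mouse was lowest for 23.8% and highest for 6.98%. The median log2 fold change of the members was 0.69 for Eµ-PRMT5 mice (all genes 0.042) and 0.65 for double transgenic mice (all genes -0.073). Without Eµ-PRMT5 mouse 2 the first of these was 0.21, with 6 of 10 members above 0. Markers of other cells differed from the Eµ-TCL1 mouse as well, and their part in these values was not tested. All 8 neutrophil genes had log2 fold changes above 0 in both comparisons (median 2.09 and 2.52), as had the 4 tested macrophage genes (0.78 and 1.69) and the 3 tested erythroid genes (2.58 and 3.08). Plasma cell, NK cell and T cell genes had medians above 0 in the first comparison and below 0 in the second. These were 0.38 and -1.54, 1.13 and -1.13, and 0.24 and -0.35. In sum, neutrophil genes reached 593 CPM in the Eµ-TCL1 mouse, and 417 to 5172 CPM and 637 to 8730 CPM in the Eµ-PRMT5 and double transgenic groups. No member passed the threshold in either comparison by edgeR or DESeq2. Over all genes edgeR called 0% in both, and DESeq2 called 18 and 16 genes.

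Nfkbie differed most from the Eµ-TCL1 mouse. It gave a log2 fold change of 1.48 (SE 0.77, adjusted p = 0.709 by edgeR) in Eµ-PRMT5 mice and 2.02 (SE 0.82, adjusted p = 0.778 by edgeR) in double transgenic mice. In double transgenic mice it was the 1 member of 10 at an unadjusted p under 0.05, where 1.75% of genes were higher and 4.33% lower at that level. In Eµ-PRMT5 mice 0 of 10 members were, beside 1.96% of genes higher and 4.82% lower. DESeq2 gave Nfkbie an unadjusted p of 0.0345 and 0.00600 in these comparisons, with adjusted p of 0.557 and 0.396. Without Eµ-PRMT5 mouse 2 the log2 fold change in Eµ-PRMT5 mice was 0.79. That in double transgenic mice was between 1.95 and 2.12 when 1 of its 3 mice was left out, and the Eµ-TCL1 mouse, on which the value rests, could not be left out.

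The other differences from the Eµ-TCL1 mouse were smaller than or close to their errors. In Eµ-PRMT5 mice they were 0.87 (SE 0.81) for Rel, 0.76 (SE 0.53) for Rela, 0.70 (SE 0.56) for Nfkb1, 0.72 (SE 0.83) for Tnfaip3 and 0.67 (SE 0.67) for Nfkbia on the log2 scale. Bcl3, Nfkb2 and Relb gave 0.21, 0.04 and 0.01, and these 3 were below 0 when only library size or the upper quartile was used for scaling. In double transgenic mice the values were 0.89 (SE 0.83) for Rel, 0.86 (SE 0.70) for Nfkbia, 0.80 (SE 0.68) for Bcl3 and 0.79 (SE 0.54) for Rela, with 0.51 for Nfkb1, 0.45 for Tnfaip3, 0.38 for Nfkb2 and 0.13 for Relb. Relb was below 0 there with library size only. Nfkbiz measured -0.14 (SE 0.46) in Eµ-PRMT5 and -0.45 (SE 0.47) in double transgenic mice.

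By rank, the Eµ-TCL1 mouse was below all 7 other mice for 3 members (Nfkb1, Rela and Nfkbie) and above all for 0. Across tested genes it was below the other 7 for 14.2% and above for 21.3%. For genes in the same range of mean CPM as the members, these shares were 23.8% and 6.98%. With library size only, the Eµ-TCL1 mouse was below for 1 member (Nfkbie) and above for 1 (Nfkbiz). This library also had the fewest counts and the highest scaling factor of the 8 (1.16).

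**Figure D3:**
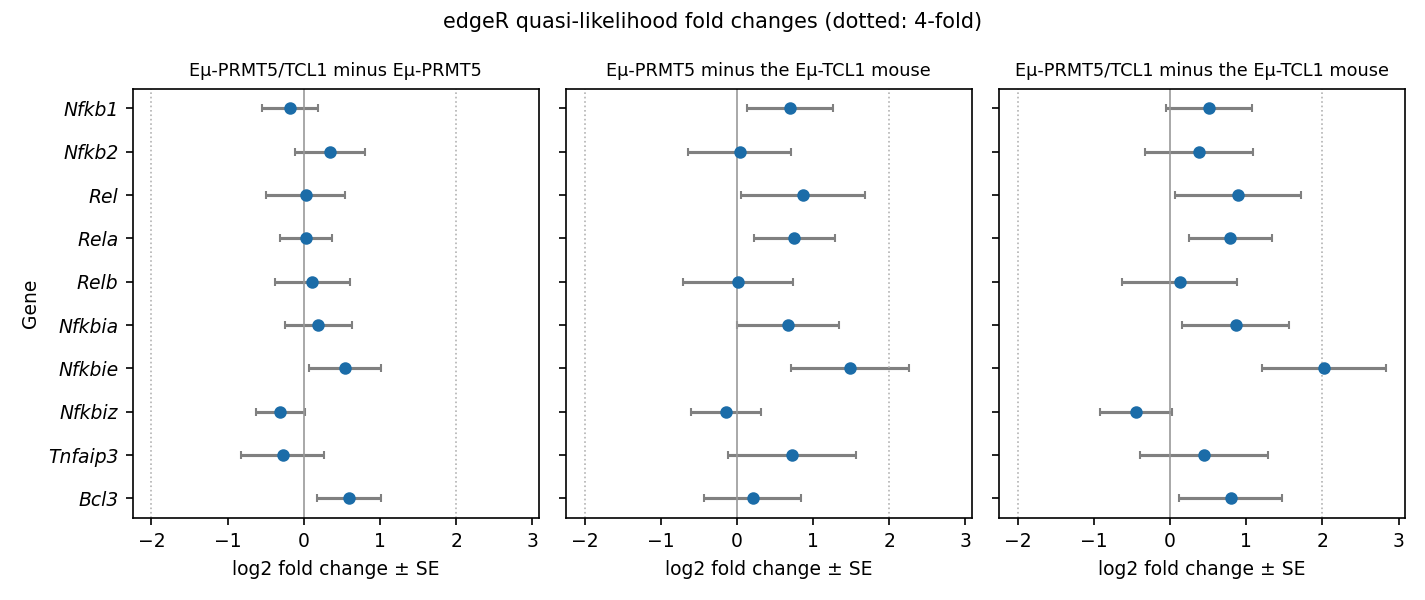
Log2 fold change of each member with its standard error from edgeR's quasi-likelihood fit over 8 libraries, in the 3 comparisons, where the dotted lines mark a change of 4-fold. Values between double transgenic and Eµ-PRMT5 mice lie between -0.31 and 0.59, and Nfkbie against the Eµ-TCL1 mouse, at 1.48 and 2.02, is the point furthest from 0 in both other panels.

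The members were then compared with each other across the 8 mice, beginning with the partners of the known dimers. Levels of Nfkb2 and Relb, the non-canonical pair, followed each other most closely of the 7 relations examined, with r = 0.893 (exact permutation p = 0.00342, adjusted over 7 p = 0.0240) and rho = 0.881 (exact permutation p = 0.00724, adjusted p = 0.0507). Without Eµ-PRMT5 mice 2 and 3, the pair farthest from the median of Nfkb2, r was 0.775 (exact permutation p = 0.0694). For the canonical pairs, Nfkb1 with Rel gave r = 0.812 (exact permutation p = 0.0166, adjusted p = 0.0465) and rho = 0.738 (exact permutation p = 0.0458, adjusted p = 0.0802). Nfkb1 with Rela gave r = 0.779 (exact permutation p = 0.0201, adjusted p = 0.0465) and rho = 0.810 (exact permutation p = 0.0218, adjusted p = 0.0508). Without Eµ-PRMT5 mice 1 and 2 these were 0.640 and 0.775 (exact permutation p = 0.160 and 0.0778). With 6 mice none of the 3 relations was past 0.05, although r of Nfkb1 with Rela was almost the same. Without Eµ-PRMT5 mouse 2 alone, which was chosen after its values were seen, r was 0.824 for Nfkb2 with Relb, 0.707 for Nfkb1 with Rel and 0.650 for Nfkb1 with Rela.

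Of the inhibitors, Nfkbia with Tnfaip3 gave r = 0.753 (exact permutation p = 0.0266, adjusted p = 0.0465) but rho = 0.429 (exact permutation p = 0.299, adjusted p = 0.419), and r was 0.614 (exact permutation p = 0.215) without Eµ-PRMT5 mice 2 and 3. Rel with Nfkbie, whose product binds c-Rel dimers, gave r = 0.723 (exact permutation p = 0.0517, adjusted p = 0.0724) and rho = 0.810 (exact permutation p = 0.0218, adjusted p = 0.0508), and r was 0.428 (exact permutation p = 0.386) without Eµ-PRMT5 mouse 2 and double transgenic mouse 2. No relation of Nfkbia with Nfkbiz was detectable in 8 mice (r = 0.051, exact permutation p = 0.901, adjusted p = 0.901, and rho = 0.190, exact permutation p = 0.665, adjusted p = 0.775). Nor was one detectable with the mean of 15 early response genes, such as Fos and Egr1, which rise within minutes of stimulation or of cell handling (r = 0.078, exact permutation p = 0.840, adjusted p = 0.901, and rho = -0.048, exact permutation p = 0.935, adjusted p = 0.935). The 6 mice left gave r = -0.455 (exact permutation p = 0.378) and 0.216 (exact permutation p = 0.637). The 8 mice are of 3 genotypes, and no genotype has the 6 mice that a separate correlation would need.

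Over all 45 pairs of members, 39 had r above 0 and the median r was 0.611, from -0.43 (Rela with Nfkbiz) to 0.898 (Rel with Relb). Pairs of genes in the same range of mean CPM had a median r of 0.095. These pairs share libraries and mice, and Eµ-PRMT5 mouse 2 is high in most of them. The tested genes most like Nfkbia over the 8 mice were Trpc4ap (r = 0.963), Rab11fip1 (0.962) and Spata2 (0.937), with Nfkbie the nearest member (0.816). For Nfkb2 they were Fam167a (0.940), Mboat7 (0.926) and Nfe2l1 (0.925), and Relb was ranked 9 of all genes.

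**Figure D4:**
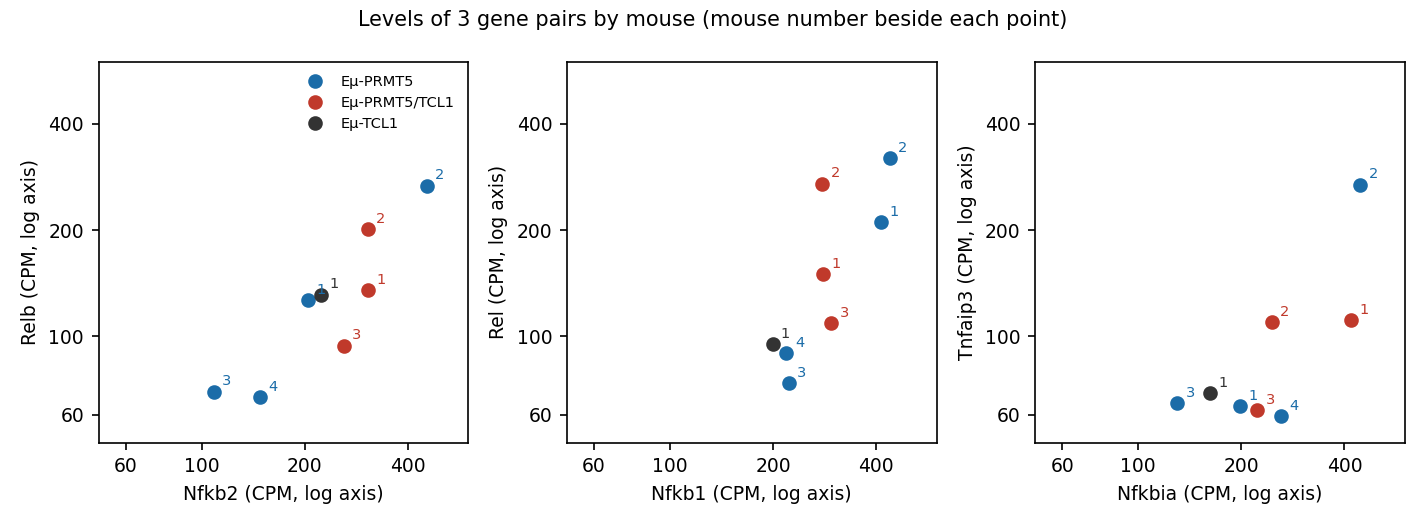
Levels of Nfkb2 and Relb, of Nfkb1 and Rel, and of Nfkbia and Tnfaip3 in the 8 mice, as CPM on log axes, colored by genotype and numbered by mouse. The points of Nfkb2 and Relb rise together (r = 0.893), whereas in the right panel 5 mice lie at about the same Tnfaip3 level (59.6 to 69.2 CPM) over Nfkbia levels from 130 to 260 CPM.

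Levels of different genes were compared only per length, as CPM per kb of merged exons. Nfkbia was the highest at 162 ± 70.8 CPM per kb (SD, n = 8) and above the next gene in 8 of 8 mice. It was followed by Nfkbie (58.4 ± 33.6), Nfkb2 (54.8 ± 23.5), Rela (41.0 ± 11.7), Relb (35.2 ± 17.5), Nfkb1 (24.3 ± 7.39), Bcl3 (22.2 ± 8.43), Rel (22.1 ± 12.4), Tnfaip3 (14.0 ± 9.85) and Nfkbiz (11.98 ± 2.32). Apart from Nfkbia over Nfkbie and Rel over Tnfaip3 (8 of 8 mice), neighbors in this order changed places in at least 1 mouse. The place of Nfkb1 depended on the length used. The merged exons of this gene cover 12061 bases and its longest transcript 4149, and with the longest transcript it was at 70.7 CPM per kb and in place 2.

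**Figure D5:**
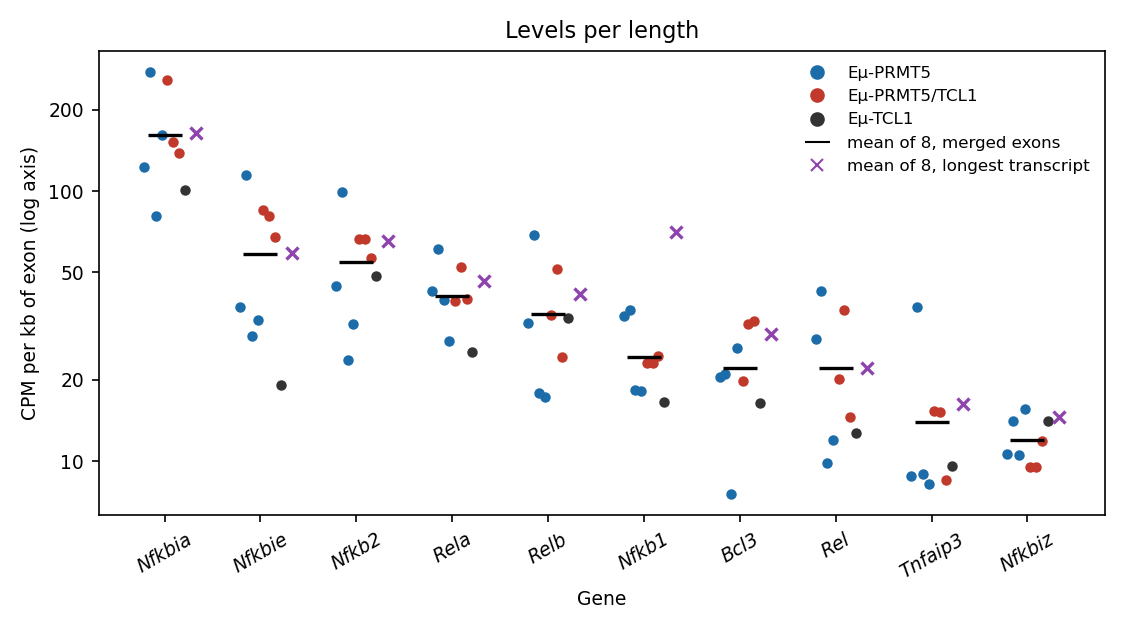
CPM per kb of merged exons for each member and mouse on a log axis, with a bar at the mean of 8 mice and a cross at the mean per kb of the longest transcript. Nfkbia is the highest (mean 162), and the cross of Nfkb1 (70.7) lies well above its bar (24.3).

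Ratios of counts within a library do not depend on the scaling of libraries. They were chosen after the counts had been seen, and 7 were compared between the 4 Eµ-PRMT5 and 3 double transgenic mice by a two-sided exact permutation test, in which the smallest p possible was 0.0571. The ratio of Nfkb2 to Nfkb1 was 0.493, 1.04, 0.488 and 0.677 in Eµ-PRMT5 mice, 1.09, 1.10 and 0.879 in double transgenic mice, and 1.12 in the Eµ-TCL1 mouse. That of Nfkbie to Nfkb1 was 0.273, 0.795, 0.400 and 0.463 in Eµ-PRMT5 mice, 0.929, 0.885 and 0.697 in double transgenic mice, and 0.293 in the Eµ-TCL1 mouse. Both overlapped between the groups through Eµ-PRMT5 mouse 2 (exact permutation p = 0.114, adjusted over 7 p = 0.400 for each). Relb counts were 1.38 times the Rel counts in the Eµ-TCL1 mouse, above the range of 0.599 to 0.947 in the other 7. Nfkbie to Nfkbia was 0.360 in the Eµ-TCL1 mouse, the lowest of 8, and 0.389 to 1.01 in the others. For Relb to Rela the Eµ-TCL1 mouse was the highest (1.69). It was in place 5 of 8 for Nfkbia to Rela and for Tnfaip3 to Nfkbia. The places of this 1 mouse were not tested.

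The rest of the pathway was read from a list of 39 other genes, of which 38 were tested. These were 11 partners of the inhibitors (other IκB proteins, A20-binding proteins and deubiquitinases), 10 tested kinases of the IκB kinase complex and upstream, and 17 adaptors and ubiquitin ligases. In no comparison was any of the 38 called in either direction by edgeR (background 0%). In double transgenic against Eµ-PRMT5 mice, 0.957% of all genes were higher at an unadjusted p under 0.05 and 1.21% lower. Of the 38, 0 were lower and 1 was higher at that level. This was Tnip3, which encodes an A20-binding protein, at 2.84, 9.97, 26.9 and 7.15 CPM in the Eµ-PRMT5 group but 74.8, 25.7 and 9.99 CPM in double transgenic mice (log2 fold change 1.66, SE 0.75, adjusted p = 1.00 by edgeR). The median log2 fold change of the 38 was -0.11 in that comparison, with 11 above 0. Against the Eµ-TCL1 mouse it was 0.36 and 0.27, with 32 and 29 above 0. In the same order, 40.6%, 51.9% and 46.6% of all genes were above 0. Eµ-PRMT5 mouse 2 was the highest of 8 for 11 of the 38 genes (28.9%), namely 3 of 11 partners, 1 of 10 kinases and 7 of 17 adaptors and ligases. Over all tested genes this mouse was highest for 8.65%. Chosen after their values were seen, Nfkbid, which encodes a nuclear IκB protein, was at 991 CPM in that mouse and between 119 and 464 CPM in the others, and Traf1, an adaptor of TNF receptors, at 418 CPM against 57.8 to 189 CPM.

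A list of 22 known NF-κB target genes, which also holds Nfkbid, had 0 genes called in any comparison by edgeR. Between the replicated groups, 0.957% of all genes were higher in double transgenic mice at an unadjusted p under 0.05 and 1.21% lower. Of the 22 targets, 0 were lower and 1 was higher at that level, namely Ccnd2, which encodes cyclin D2. It measured 268, 434, 393 and 264 CPM in the Eµ-PRMT5 group, 559, 506 and 828 CPM in the double transgenic group, with 126 CPM in the Eµ-TCL1 mouse (log2 fold change 0.89 between the replicated groups, SE 0.36, adjusted p = 1.00 by edgeR). Every double transgenic mouse was above every Eµ-PRMT5 mouse for this gene, as for 1.35% of all tested genes. In Eµ-PRMT5 and double transgenic mice against the Eµ-TCL1 mouse, log2 fold changes were 3.14 and 4.22 for Tnf and 1.43 and 2.32 for Ccnd2. For Bcl2l1, which encodes the survival protein BCL-XL, they were -1.47 and -2.07. Of the 22 targets, 14 and 13 were above 0 in these comparisons, beside 51.9% and 46.6% of all genes. Tnf was near the floor of the Eµ-TCL1 library, with 2 counts there (0.54 CPM) and 13 to 93 counts (2.64 to 13.3 CPM) in the other 7. The medians of the list were 0.29, 0.71 and 0.51 in the 3 comparisons. Of the 15 early response genes, 0 were called between the replicated groups by edgeR. At the unadjusted level 0 were higher and 0 lower there, beside 0.957% and 1.21% of all genes. In Eµ-PRMT5 mice against the Eµ-TCL1 mouse, 11 of the 15 had a log2 fold change above 0, beside 51.9% of all genes. The values were 1.54 for Dusp1 and -2.34 for Egr1. Eµ-PRMT5 mouse 2 was the highest for 7 of 22 targets and 4 of 15 early response genes, beside 8.65% of all tested genes.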

How the data were processed

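For 8 libraries, the authors deposited raw read counts by gene symbol. By their methods, pan-B cells were isolated magnetically, cDNA was preamplified from low RNA input, and the CLEAR workflow and DESeq2 1.20.0 were used, whereas the labels describe another library kit. The submitters' processing notes name GRCm38, Subread and featureCounts, and the aligner, annotation and strand setting are not given in the sources used here. Cells holding NA (36919) were not read as 0, and the 14072 symbols complete in 8 libraries were kept. Of the 10830 left out, 2145 lacked a value in Eµ-PRMT5 mouse 1 alone, and 89 to 195 in each other library alone.

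Counts were analysed with edgeR 4.0.16 in R 4.3.3 (TMM, expression filter by group, 1 fit over 8 libraries, quasi-likelihood test, Benjamini-Hochberg adjustment over 13173 genes, biological coefficient of variation 0.483), and the code was tested on simulated data. DESeq2 1.42.0, other scalings, filters, lengths and left-out mice were alternatives. Correlations used log2 CPM with a prior count of 2. The members and lists were chosen with earlier results of these data known. Some cell type markers of the lists are not reported here, and sums leave them out. All members were reported, and from other lists those past a threshold or the 3 with the smallest p, and the 3 genes most like Nfkbia and Nfkb2. Positions and lengths are from GENCODE vM21. Intervals of counting error were not computed, and no use of molecular identifiers is described.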

Additional observations from a re-analysis of the deposited data

Results flagged for a closer look

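Among the 10 members, each examined for 1 mouse far from the others of the 4 Eµ-PRMT5 mice, 2 genes stood out. Chance gives about 1 in 20 such groups for normal values, or 0.5 of 10, and 11.0% of the 13173 tested genes stood out by the same measure of CPM. Tnfaip3 reached 269.1 CPM in mouse 2, whereas the other 3 lay from 59.6 to 64.7 CPM, a gap of 0.976 of the whole range and past Dixon's critical value for 4 samples. Nfkbie reached 348.3 CPM in the same mouse and 88.9 to 113 CPM in the rest, a gap of 0.906 of the range. On log2 CPM, a scale chosen after seeing the data, 5.52% of genes stood out, Tnfaip3 among them (0.945), while Nfkbie (0.823) was no longer past the critical value.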

How the results depend on the processing

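In all alternatives run, 0 members were called in the 3 comparisons, and 440 of 470 fold changes of single members kept their sign. DESeq2 called 4, 18 and 16 genes over all genes, where edgeR called 0. Double transgenic against Eµ-PRMT5 mice, the replicate block gave -0.064 for Rel and -0.12 for Rela (log2), and the same 6 mice without the block, an alternative chosen after seeing the data, gave -0.19, -0.13 and -0.11 for Rel, Rela and Relb. Deviations from the group mean of each gene correlated by 0.027, 0.12 and 0.18 between mice of the same number. The numbers were therefore not taken as pairs. With the block 495 genes were higher and 331 lower at the unadjusted level of 0.05, against 374 and 368 in the same 6 mice without it and 126 and 160 in all 8. With each mouse left out, the values ranged from -0.49 to 0.59 for Tnfaip3, -0.42 to 0.50 for Rel, -0.13 to 0.25 for Rela, -0.21 to 0.71 for Relb and -0.14 to 0.59 for Nfkbia, and the median of members from -0.14 to 0.59. Eµ-PRMT5 mice against the Eµ-TCL1 mouse, Nfkb2, Relb and Bcl3 gave -0.14, -0.16 and -0.00048 with upper-quartile scaling and -0.22, -0.23 and -0.10 with library size only, Nfkbiz gave 0.15 with NA counted as 0, and with each mouse left out the ranges were -0.54 to 0.27 for Nfkb2, -0.58 to 0.23 for Relb, -0.14 to 1.03 for Tnfaip3 and -0.26 to 0.045 for Nfkbiz. Library size only moved the median of all genes from 0.042 to -0.21 there, and from -0.073 to -0.30 for double transgenic mice, where Relb gave -0.10 and ranged from -0.19 to 0.36 with each mouse left out. With library size only, r of Nfkbia with Nfkbiz was -0.097, and the Eµ-TCL1 mouse was lowest for 1 member and highest for 1. With the longest transcript, places per length were 2 for Nfkb1, 4 for Nfkbie, 5 for Rela and 6 for Relb. The causes were not tested. Every member had 82 counts or more in each library, and counting error was not set against the spread between mice.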
